A study of Homo sapiens with 4 samples.

Results

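MYC and the proteins that share its dimerisation partner MAX were followed probe set by probe set in 2 human leukemia cell lines. Every probe set whose platform annotation names MYC, MAX, MXI1, MXD1, MXD4, MNT or MYCBP was taken, and the MXD family rule added MXD3, which gave 17 of the 22277 probe sets on each array and 8 of the 13119 gene symbols named on it. BV-173 and SUP-B15 are established B precursor lines that carry the Philadelphia chromosome and express the BCR-ABL1 fusion kinase. RNA of each line was measured in cells grown without drug and in cells kept for 16 h in 10 μmol/l STI571 (imatinib), which blocks that kinase. Each of the 4 groups held 1 array, no array had a replicate, and the labels do not say whether treated and untreated cells came from separate cultures. The study's title places the comparison within work on a mutator enzyme in BCR-ABL1-transformed leukemia.

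MYC is a transcription factor that binds DNA only as a dimer with MAX, at the E-box sequence CACGTG and its variants, and drives genes of ribosome production, nucleotide synthesis and cell cycle entry. MAX also pairs with MXD1, MXI1, MXD3, MXD4 and MNT, which occupy the same sites and recruit SIN3 and histone deacetylases to repress them. MYCBP is a small protein that binds the amino terminus of MYC. In B precursor leukemia BCR-ABL1 signalling is one of the inputs that keep the MYC gene active.

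The network's own genes can carry the sites it reads, so the start regions of the members were searched for the E-box CACGTG, for the FOXO site GTAAACA and for the STAT site TTCNNNGAA, on both strands. RefSeq windows of GRCh38.p14, from 250 bases before to 50 bases after a transcript start, were matched for 7 of the 8 genes, all but MYC, with 11 windows. CACGTG lay in 2 of the 11 windows, those of MNT and MXD4, and in 7.26% of all 35116 windows. GTAAACA lay in 2 of the 11 windows, both among the 3 of MXI1, and in 3.42% of all windows. TTCNNNGAA lay in 0 of the 11 and 7.66% of all. A match describes the letters of the window and does not show binding. The 4 windows with a match are shown because their genes are set beside MYC and FOXO values further on, with the matched letters in capitals, 5′ to 3′ on the gene's strand.
MNT, chr17:2401011-2401310, minus strand: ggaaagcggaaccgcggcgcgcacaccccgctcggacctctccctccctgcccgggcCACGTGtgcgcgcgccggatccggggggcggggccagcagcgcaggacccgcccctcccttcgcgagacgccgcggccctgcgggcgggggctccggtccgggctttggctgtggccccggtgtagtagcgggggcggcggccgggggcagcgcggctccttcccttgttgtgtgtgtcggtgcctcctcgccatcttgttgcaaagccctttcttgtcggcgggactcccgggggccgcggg
MXD4, chr4:2262060-2262359, minus strand: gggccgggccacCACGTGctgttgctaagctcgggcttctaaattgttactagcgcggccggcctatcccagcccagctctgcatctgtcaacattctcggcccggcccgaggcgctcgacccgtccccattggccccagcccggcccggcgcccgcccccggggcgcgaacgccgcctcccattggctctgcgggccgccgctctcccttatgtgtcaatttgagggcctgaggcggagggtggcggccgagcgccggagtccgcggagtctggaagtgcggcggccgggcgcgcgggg
MXI1, chr10:110209981-110210280, plus strand: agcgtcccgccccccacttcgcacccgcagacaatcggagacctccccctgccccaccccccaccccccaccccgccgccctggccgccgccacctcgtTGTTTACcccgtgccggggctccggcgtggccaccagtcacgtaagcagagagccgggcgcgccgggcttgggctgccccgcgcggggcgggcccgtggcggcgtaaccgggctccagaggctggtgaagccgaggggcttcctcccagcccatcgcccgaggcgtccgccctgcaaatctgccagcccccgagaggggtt
MXI1, chr10:110225746-110226045, plus strand: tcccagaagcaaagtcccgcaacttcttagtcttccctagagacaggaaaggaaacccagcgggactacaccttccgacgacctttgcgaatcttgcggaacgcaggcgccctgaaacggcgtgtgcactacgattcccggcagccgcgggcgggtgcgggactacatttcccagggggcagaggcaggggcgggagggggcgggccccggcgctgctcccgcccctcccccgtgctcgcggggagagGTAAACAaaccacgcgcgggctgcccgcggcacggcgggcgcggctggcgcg
The E-box of MNT starts 193 bases before the transcript start and that of MXD4 238 bases before it. The FOXO-type sequences of MXI1 start 151 and 2 bases before their respective starts, the first on the opposite strand.

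The values are the signal intensities that the authors deposited, on a linear scale. Array medians ranged from 95.5 to 115, and no detection calls were used here, so how far a dim probe set lies above background is unknown. Of 8 B precursor markers with a probe set of their own, 7 were above the array median on all 4 arrays. The exception, MME (CD10), had signals of 31.3 and 81.4 in BV-173 and of 2102 and 4178 in SUP-B15. Of the T cell, myeloid, erythroid and stromal markers, 0 were above the median on all arrays. Summed signals were 164.1 to 310.2 for the 6 T cell markers, 129.4 to 429.4 for 6 myeloid, 83.3 to 134.4 for 3 erythroid and 218.6 to 391.1 for 6 stromal markers, against 21230 to 78842 for the B precursor markers. MPO, a myeloid enzyme gene, was above the median on both SUP-B15 arrays (196.2 and 162) and had 8.3 and 59.3 in BV-173. On 1 array each, CSF1R (156.4, untreated SUP-B15), COL1A1 (144.1, untreated SUP-B15), PDGFRB (153.7, untreated BV-173), HBB (123.3, untreated BV-173), CD5 (112.1, treated BV-173) and COL1A2 (140.5, treated BV-173) also passed it. The part of these markers in the results was not tested.

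Differences are given on the scale log2(signal + 24.5), which understates changes of dim probe sets; 24.5 is the 25th percentile of all signals. Probe sets that reached the array median at least once were kept, which held for 15 of the 17. Of these, 8 name a single gene and 7 name several. The brightest single-gene probe set stood for each gene, so that 5 member genes (MYC, MAX, MXI1, MXD3 and MNT) were among the 7916 genes fitted. The mean STI571 effect and the line difference were tested with limma over all 7916 genes, with cell line and treatment as terms, and a gene was called at an adjusted p under 0.05. The response of a single line compares 2 arrays and has no test.

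**Figure D1:**
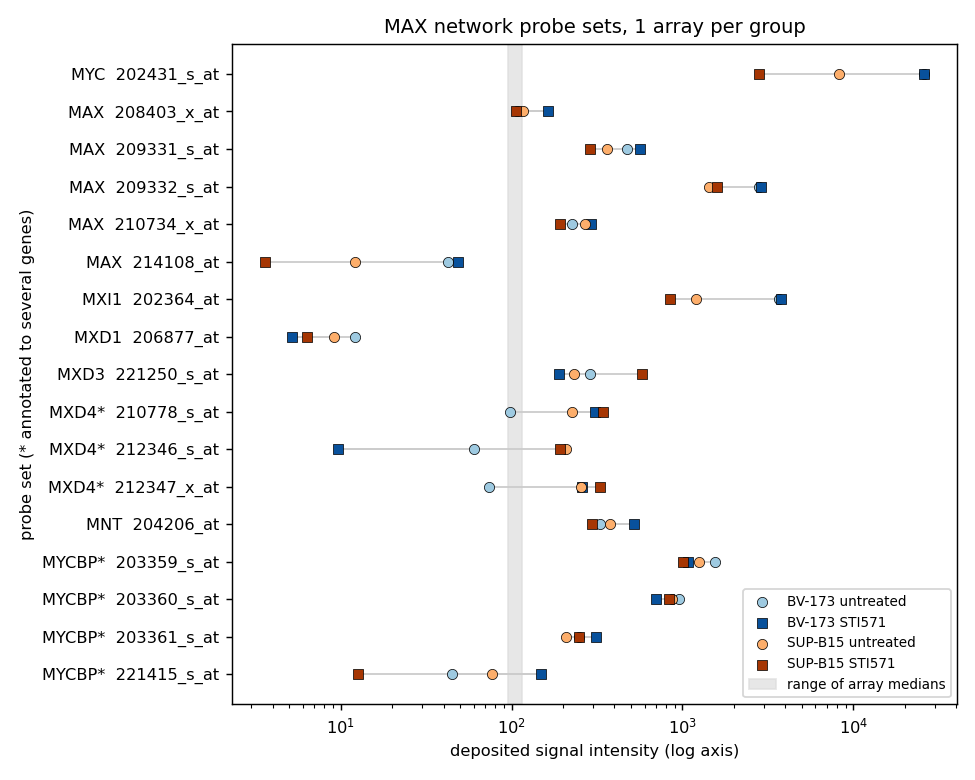
Deposited signal (log axis) of each of the 17 probe sets on the 4 arrays, 1 array per group, with no error bars because there are no replicates; circles are untreated and squares STI571-treated cells, and the grey band spans the array medians of 95.5 to 115. The MYC symbols of BV-173 coincide near 26000, while those of SUP-B15 lie apart at 8187 and 2805.

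MYC RNA was lower in SUP-B15 than in BV-173, and it was lower after STI571 in SUP-B15 but not in BV-173. Its 1 probe set, 202431_s_at, gave a signal of 25862 without and 26044.5 with drug in BV-173, against 8187 without and 2805 with drug in SUP-B15. Both BV-173 arrays were therefore above both SUP-B15 arrays. The signal ranked 186 among the 22277 probe sets of untreated BV-173 and 195 in treated BV-173, below the highest signals of those arrays (57861 and 72668), and 470 and 1318 in untreated and treated SUP-B15. Whether a signal this bright still follows the RNA amount in proportion was not tested.

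The response of MYC to STI571 was 0.01 on the log2 scale in BV-173 and −1.54 in SUP-B15, a 2.90-fold lower signal. Of all genes fitted, 5.68% were at least 2-fold lower in SUP-B15 after STI571. The 2 responses differed by −1.55 (SUP-B15 minus BV-173), and 10.9% of genes had a response at least 2-fold lower in SUP-B15 than in BV-173. The sign in BV-173 rested on the scaling: it was −0.08 with quantile normalization and −0.16 with a common array median, a setting that moved the median response of all genes by 0.10 in SUP-B15 and by −0.16 in BV-173. In RNA of a whole culture, fewer cells that express a gene and less RNA per cell cannot be told apart.

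MYC was the 1 member called for STI571 among the 5 fitted, against 3.02% of all genes called and 1.62% called lower. Its mean change over both lines was −0.76 (limma SE 0.22, adjusted p = 0.02). That error comes from the trend over genes of similar brightness. The spread between MYC's own 2 responses gives an SE of 0.77 (n = 2 lines), larger than the mean change. The call ended with no filter (adjusted p = 0.109), with the mean of probe sets for every gene (0.223), without the intensity trend (0.713) and without the cell line term (0.9999). Under either of the last settings limma called 0 of all genes (658 and 70 at an unadjusted p under 0.05), so every STI571 call given here ends there.

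MYC differed more between the lines than between treated and untreated cells of either. It was 3.15-fold lower in SUP-B15 than in BV-173 without drug (−1.66 on the log2 scale) and 9.21-fold lower with it (−3.20). The mean line difference was −2.43 (limma SE 0.22, adjusted p = 4.89e-27; SE 0.77 from its own 2 values), at adjusted p = 0.0506 without the intensity trend. SUP-B15 was called lower than BV-173 for 14.4% of all genes, and 28.7% were called in either direction. Of the 5 member genes 3 were called (MYC, MAX and MXI1), each lower in SUP-B15.

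MAX, with which MYC and the MXD, MXI1 and MNT repressors bind DNA, was lower in SUP-B15 by its brightest probe set and differed by at most 0.16 between treated and untreated cells. That probe set, 209332_s_at, gave 2791.5 and 2867 in untreated and treated BV-173, and 1427 and 1593 in untreated and treated SUP-B15. Both BV-173 signals were above both SUP-B15 signals. The line difference was −0.90 (limma SE 0.21, adjusted p = 0.000134), with −0.96 in untreated and −0.84 in treated cells. It became −0.48 with the mean of probe sets (adjusted p = 0.170), and without the intensity trend its adjusted p was 0.104. Its response to STI571 was 0.16 in SUP-B15 and 0.04 in BV-173 (mean 0.10, limma SE 0.21, adjusted p = 0.942), and −0.13 in BV-173 with a common median.

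The other MAX probe sets did not repeat this line difference evenly. Probe set 209331_s_at had signals of 473 and 561.6 in BV-173 and 360.5 and 286.6 in SUP-B15, again with both BV-173 arrays higher (line difference −0.64, adjusted p = 0.0738 in a limma fit over all 12510 kept probe sets, those with several symbols included). Probe sets 210734_x_at (225.3 and 290.8; 269.5 and 192.9) and 208403_x_at (108 and 163.7; 117.2 and 106.8), untreated then treated in each line, overlapped between the lines. These 3 dimmer sets were each higher in treated than untreated BV-173, by 0.24 to 0.51, and lower in treated SUP-B15, by 0.11 to 0.44, and were not called (adjusted p = 0.952 to 0.989). The remaining MAX set, 214108_at, stayed below the array medians with 42.6 and 48.4 in BV-173 and 12.1 and 3.6 in SUP-B15, and was not fitted. The names of all but this dim set mark probes that several transcripts share, and MAX is spliced into several forms, which these probe sets were not matched to.

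**Figure D2:**
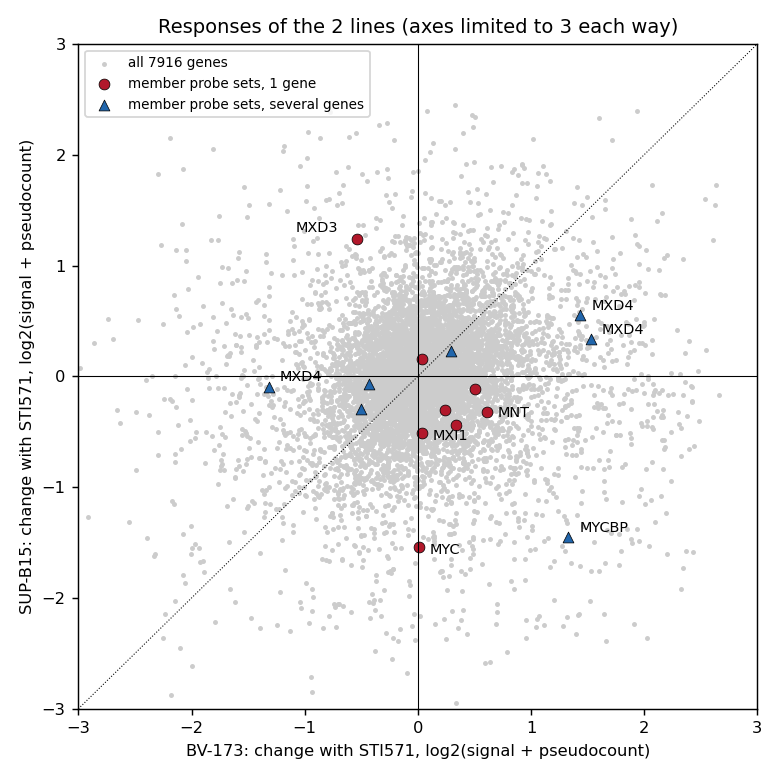
Change with STI571 in BV-173 (horizontal) against SUP-B15 (vertical), in log2(signal + 24.5), for all 7916 genes (grey; 9 lie outside the axes), for the 8 kept member probe sets that name 1 gene (red) and for the 7 that name several (blue triangles). MYC lies at 0.01 and −1.54 and MXD3 at −0.54 and 1.24, on opposite sides of the horizontal axis.

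Among the repressors that compete for MAX, MXI1 was lower in SUP-B15 like MYC, and MXD3 had changes of opposite sign in the lines. The signals of MNT overlapped between the lines, and MXD1 was too dim to compare. MXI1, an antagonist of MYC, had signals of 3688 without and 3785 with drug in BV-173, and of 1206 without and 840.5 with drug in SUP-B15. Both BV-173 arrays were above both SUP-B15 arrays. SUP-B15 was 3.02-fold lower without drug and 4.40-fold lower with it. The mean line difference was −1.87 (limma SE 0.21, adjusted p = 2.17e-17), and its adjusted p stayed at 0.0359 or less over 13 alternatives. The response of MXI1 to STI571, −0.51 in SUP-B15 and 0.04 in BV-173, was not called (mean −0.24, limma SE 0.21, adjusted p = 0.778). Its sign in BV-173 turned with a common median (−0.13).

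MXI1 is a known target of FOXO factors, and 2 of its start regions printed above hold the FOXO-type sequence. The FOXO genes themselves were not called for STI571. FOXO1 changed by 0.46 in SUP-B15 and 0.28 in BV-173 on the log2 scale (limma adjusted p = 0.624), and FOXO3 by 0.31 and 0.27 (0.739). Between the lines FOXO1 was called higher in SUP-B15 (0.83, limma adjusted p = 0.00311), as were 14.4% of all genes, while MXI1 was lower there. The line difference of FOXO3, −0.52, was not called (limma adjusted p = 0.0834). Whether FOXO factors have a part in the MXI1 values was not tested. RNA levels do not measure FOXO activity.

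MXD3, a family member known for its expression in dividing cells, had signals of 287.8 without and 190.7 with drug in BV-173, and of 231.7 without and 579.6 with drug in SUP-B15. Treated SUP-B15 stood above the other 3 arrays. The change in SUP-B15 was 1.24, a 2.36-fold higher signal, and that in BV-173 −0.54; 4.08% of all genes were at least 2-fold higher in SUP-B15 after STI571. The responses differed by 1.77, and 6.46% of genes had a response at least 2-fold higher in SUP-B15. The mean over both lines was 0.35 (limma SE 0.32, adjusted p = 0.789), and the line difference of 0.60 was not called (adjusted p = 0.148).

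MNT, a broadly expressed MAX-binding repressor, had signals of 331.1 without and 518 with drug in BV-173, and of 376.7 without and 297.5 with drug in SUP-B15. The lines overlapped, with treated BV-173 highest. The change was −0.32 in SUP-B15 and 0.61 in BV-173, with a mean of 0.15 (limma SE 0.29, adjusted p = 0.932), and the line difference was −0.29 (adjusted p = 0.498). MNT is 1 of the members with an E-box in its start region. MXD1, a repressor known to rise as blood cells mature, was at 12.1 and 5.2 in BV-173 and at 9.2 and 6.4 in SUP-B15, under the 25th percentile of every array (21.6 to 27.3), and no fold is given.

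MXD4, the other gene with an E-box in its window, was read by 3 probe sets, all annotated together with the microRNA gene MIR4800, so their signal cannot be given to MXD4 alone. They were fitted only in the model over 12510 probe sets, which called 2.82% for STI571. Probe set 210778_s_at had 98 and 307.2 in untreated and treated BV-173 and 227.1 and 344.5 in SUP-B15. Probe set 212347_x_at had 73.4 and 258.2 in BV-173 and 254.4 and 327.3 in SUP-B15. In both sets untreated BV-173 was the lowest array. Their changes were 1.44 and 1.53 in BV-173, where 6.91% of all genes were at least 2-fold higher, and 0.55 and 0.34 in SUP-B15, with adjusted p = 0.119 and 0.209 for the means.

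The remaining MXD4 probe set went the other way. Probe set 212346_s_at had 60.4 and 9.6 in BV-173 and 207.4 and 192.8 in SUP-B15, a change of −0.09 in SUP-B15 and −1.32 in BV-173 (adjusted p = 0.793). Both SUP-B15 arrays were above both BV-173 arrays, and the line difference of 2.06 was called (adjusted p = 0.00646; 26.6% of the 12510 probe sets were). Both BV-173 signals were below their array medians (95.5 and 107.6), and that of treated BV-173 (9.6) was below the added 24.5. How far the line difference depends on the added amount was not tested. This difference was 1.45 in untreated and 2.67 in treated cells. For 210778_s_at and 212347_x_at it was 1.04 and 1.51 in untreated and 0.15 and 0.32 in treated cells. Over all 15 kept member probe sets, 4 were called for the line difference in this model. Of these, 212346_s_at was called upward in SUP-B15 and those of MYC, MXI1 and MAX (209332_s_at) downward.

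MYCBP was read by 4 probe sets that also name the readthrough gene GJA9-MYCBP, 2 of them GJA9 as well. The brightest, 203359_s_at, had 1541 and 1083 in untreated and treated BV-173 and 1245 and 1009 in SUP-B15, lower with drug in each line by 0.50 and 0.30 (adjusted p = 0.502). The line ranges overlapped. Probe set 203360_s_at had changes of −0.43 and −0.07 and 203361_s_at of 0.29 and 0.23, in BV-173 and SUP-B15. The dimmest, 221415_s_at, had 44.7 and 149.6 in BV-173 and 77.1 and 12.7 in SUP-B15, changes of opposite sign (1.33 and −1.45). None of the 7 probe sets with several symbols was called for STI571: the count was 0 by limma, and 2 had an unadjusted p under 0.05 (210778_s_at and 212347_x_at, 0.00528 and 0.0125).

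Of the genes that MYC is known to induce, 9 fell with STI571 and most had a negative change in BV-173 as well as in SUP-B15. Of 36 listed genes 31 were measured, and limma called these 9 lower and 0 higher, which is 29.0% called lower beside 1.62% of all genes. In both lines alike, 20 of the 31 had a negative change (64.5%, beside 26.5% of all genes) and 0 a positive one. The median change was −0.58 in SUP-B15 and −0.50 in BV-173, beside −0.01 and 0.05 over all genes. At least 2-fold lower were 3 genes in BV-173, where 4.6% of all genes were, and 3 in SUP-B15.

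CCND2, a D-type cyclin, had signals of 1747 and 669.2 without and with drug in BV-173, and of 238.8 and 88.4 in SUP-B15, a mean change of −1.29 (limma SE 0.28, adjusted p = 0.000496). PA2G4, a growth-regulated nucleolar protein gene, went from 4484 to 2430 and from 2041.5 to 1047 (mean −0.91, adjusted p = 0.00103), and the nucleotide kinase gene NME1 from 10395.5 to 6418 and from 7901 to 3646 (mean −0.90, adjusted p = 0.00134). PHB1, a mitochondrial chaperone gene, had changes of −0.59 and −1.04 (adjusted p = 0.00442). The other 5 called genes were CAD, SRM, MRTO4, HSPE1 and ODC1, with mean changes of −0.80 to −0.67. In CCND2, PA2G4, NME1 and PHB1 the treated array was the lower in each line. The MYC signals of BV-173 were 25862 and 26044.5, a change of 0.01. It was −0.08 with quantile normalization and −0.16 with a common median. Whether so bright a signal follows the RNA amount in proportion, and whether these target genes follow MYC, was not tested. The count of 9 became 4 with gene-specific probe sets alone, 2 with the mean of probe sets and 0 without the intensity trend or without the cell line term. Fewer genes were fitted with gene-specific sets (4865, beside 7916), and CCND2 and PHB1 had no value there. CCND2 (0.467) and PHB1 (0.101) lost their call with the mean of probe sets, and PA2G4 with that (0.0518) and with gene-specific sets (0.0861).

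**Figure D3:**
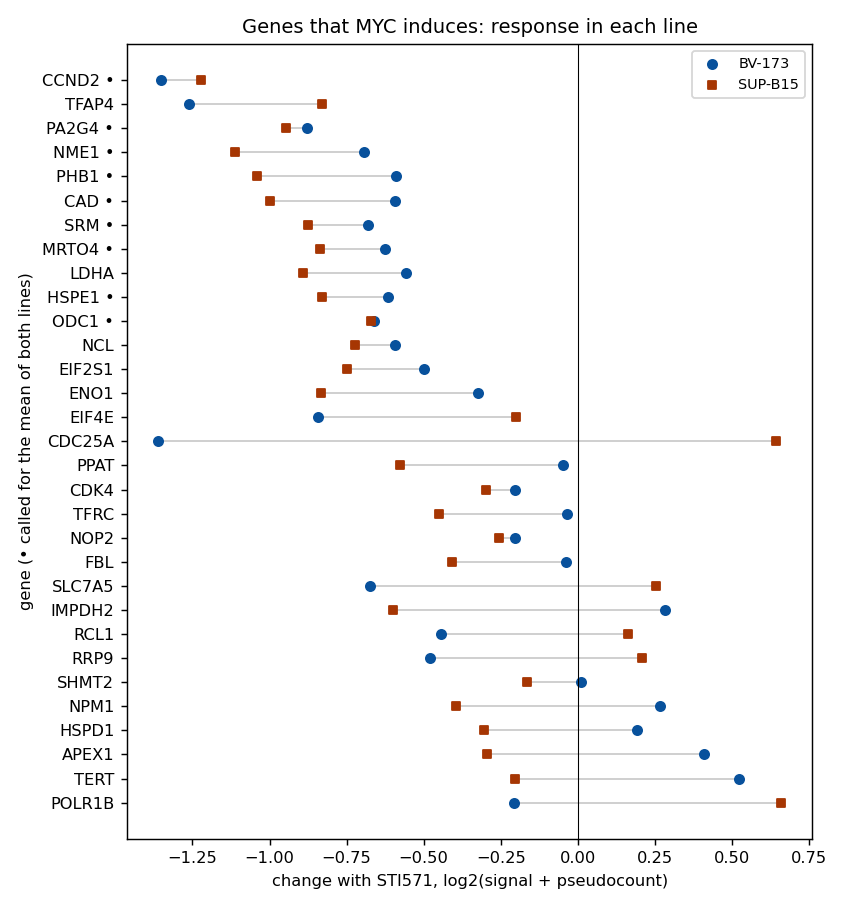
Change with STI571, in log2(signal + 24.5), of the 31 measured genes that MYC is known to induce, in BV-173 (circles) and SUP-B15 (squares), 1 treated and 1 untreated array each; dots after a name mark the 9 genes called for the mean of both lines. The symbols of 20 genes lie left of 0 in both lines, and CDC25A has the widest gap between lines, −1.36 and 0.64.

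Between the lines, genes of this list were more often called lower than higher in SUP-B15. MYC was also lower there, but a part of MYC cannot be told apart from other differences between the lines. Of the 31 genes of the list 16 were called lower in SUP-B15 and 2 higher, beside 14.4% of all genes in each direction. Their median line difference was −0.55, beside −0.04 over all genes. The 18 calls became 11 with gene-specific probe sets, 8 without the treatment term and 4 without the intensity trend. With gene-specific sets fewer genes were fitted, and CCND2 had no value. Of the genes named above, CCND2 had a line difference of −2.68 (adjusted p = 6.96e-20) and PA2G4 of −1.16 (adjusted p = 3.13e-07). FBL, a nucleolar methyltransferase, was singled out after its value was seen, with a line difference of −1.63 and an STI571 change of −0.41 in SUP-B15 and −0.04 in BV-173.

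Of 16 genes that MYC is known to repress, 13 were measured and limma called 2 higher (15.4%, beside 1.4% of all genes) and 0 lower. DDIT3, a stress-induced transcription factor gene, rose from 275.7 to 1125 in SUP-B15 and from 381.6 to 547.4 in BV-173 (mean 1.22, limma SE 0.26, adjusted p = 0.000452). CCNG2, a cyclin linked to cell cycle exit and also known as a FOXO target, rose from 1076 to 2522 and from 452.7 to 720.6 (mean 0.93, adjusted p = 0.00321). The CCNG2 call ended when probe sets were averaged (0.0567) and under a common median (0.0789). At least 2-fold lower in SUP-B15 were 3 of the 13, where 5.68% of all genes were. These were CDKN1C, NDRG2 and CEBPA (−2.19, −2.49 and −1.07), with treated signals of 20.2, 7.4 and 71.9. The 2 called genes were at least 2-fold higher in SUP-B15, where 4.08% of all genes were. In BV-173 the count was 0 in each direction. The median over the list was 0.08 in SUP-B15 and 0.23 in BV-173 while the median of the mean changes was −0.17, so the list had no single direction.

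Genes whose products act on the MYC gene itself gave 2 calls upward and 0 downward among 21 measured of 22 listed (9.52%, beside 1.4% of all genes). MYB, a progenitor transcription factor, rose from 7942 to 15615 in SUP-B15 and from 2410 to 9946 in BV-173 (mean 1.50, limma SE 0.21, adjusted p = 5.94e-10). IKZF1, which encodes Ikaros, a repressor of MYC in pre-B cells, rose from 2083 to 2635 and from 503.3 to 1405.5 (mean 0.89, adjusted p = 0.00286). IKZF1 changed by 1.44 in BV-173, where MYC had 0.01, and by 0.34 in SUP-B15, where MYC had −1.54. Its line difference was 1.45, higher in SUP-B15, where MYC was lower (limma adjusted p = 4.24e-10, and 0.0874 without the intensity trend). Whether IKZF1 has a part in the MYC values was not tested. The STI571 call of IKZF1 ended with a common median (0.0833), gene-specific probe sets (mean 0.52, adjusted p = 0.391) and the mean of probe sets (mean 0.56, adjusted p = 0.439).

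In the partner lists no gene was called for STI571, beside 3.02% of all genes, a share at which lists of this length can hold none. The limma count was 0 of 18 measured cofactors and regulators of MYC protein (23 listed), 0 of 7 corepressors used by MXD, MXI1 and MNT (10 listed) and 0 of 5 genes of the wider MAX and MLX network (8 listed, MXD3 included), with 1, 0 and 0 genes at an unadjusted p under 0.05. PIM1, a kinase that stabilises MYC, had the largest mean change of these, with signals of 396.7 and 86.6 in BV-173 and 90.6 and 11.6 in SUP-B15 (−1.80, limma SE 0.61, adjusted p = 0.0828). BIN1, an inhibitor of MYC, had 0.58 and 0.73 at signals of 136.8 or less (adjusted p = 0.888). Of the corepressors, SIN3B had 0.23 and 0.86 (adjusted p = 0.624) and the chromatin subunit RBBP4 −0.52 and 0.13 (0.826). MLX, a partner parallel to MAX, had −0.17 and −0.23 (0.836).

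The pattern of MYC over the 4 arrays was then compared with that of the other 7915 genes, by the root mean square difference of log2 values after centring each gene on its 4-array mean. Nearest were TSR3, an enzyme that modifies ribosomal RNA (0.14), CRYBG1 (0.17), the leukocyte adhesion ligand ICAM3 (0.17), POLR3G, a subunit of RNA polymerase III (0.21), and the thromboxane synthase gene TBXAS1 (0.22). POLR3G had 891.7 and 596.9 in BV-173 and 235.6 and 66.3 in SUP-B15. TSR3 went from 390.2 to 476.1 and from 143.2 to 23.7. These genes were chosen for their pattern, so their differences are a description with no test. In treated SUP-B15 TSR3, CRYBG1, ICAM3 and TBXAS1 had signals of 3.0 to 26.2, of the size of the added 24.5 or below it, so their line differences depend on what is added. That of CRYBG1 was −4.14 with 1 added and −1.55 with 4 times the main amount, that of TBXAS1 −4.03 and −1.74, and that of MYC −2.44 and −2.41. The line difference of TSR3, −2.34, was −0.24 with gene-specific probe sets.

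**Figure D4:**
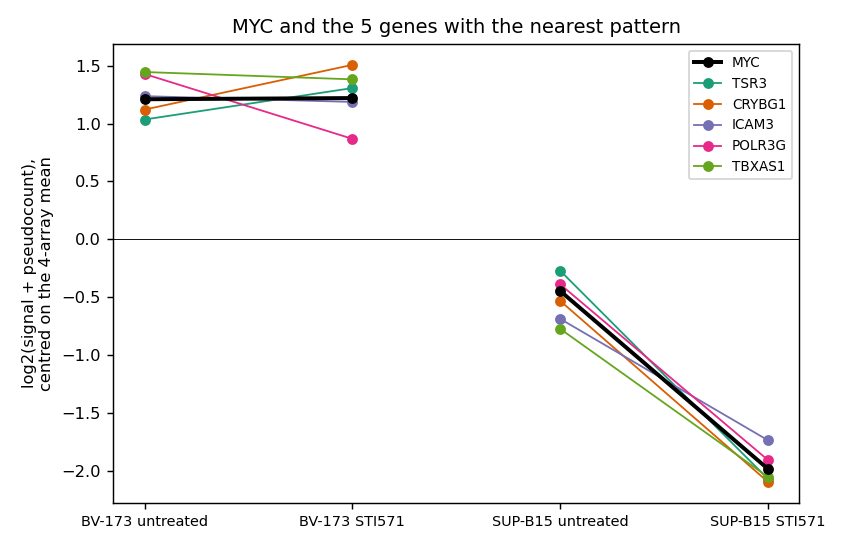
Values of log2(signal + 24.5) on the 4 arrays, each gene centred on its own mean, for MYC (thick black) and the 5 genes with the smallest root mean square difference from it (0.14 to 0.22); lines join the untreated and treated array of a cell line. All 6 genes are above 0 on both BV-173 arrays and below 0 on both SUP-B15 arrays, which the choice of genes by likeness to MYC fixes.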

How the data were processed

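RNA was isolated with Qiagen RNeasy reagents and biotin-labelled for Affymetrix arrays, per the labels' protocols, and GCOS 1.3 is named in the submitters' processing notes. The deposited values are linear signal intensity per probe set, scaled by the authors array by array (the 2%-trimmed mean was 500.2 on each array). How probes were summarised is not given in the sources used here. Of 22277 probe sets, 62 were controls, 19064 named 1 gene, 1043 several and 2108 none; 19052 matched RefSeq by gene ID.

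Main settings were log2(signal + 24.5), a filter at the 50th percentile of an array in at least 1 array, the brightest kept probe set per gene (7916 of 11963 genes) and a limma 3.58.1 fit (R 4.3.3; terms cell line and treatment; intensity trend; two-sided; Benjamini-Hochberg). Residual degrees of freedom numbered 1 and the estimated prior was infinite, so each error is the trend's value. The script was checked on simulated arrays with known changes, which does not test this error model. P-values weigh a change against the spread typical of genes of similar brightness on these arrays, not against the gene's own spread. With 1 array per group they do not measure the spread between replicate cultures. Members, lists and tests were chosen with earlier results of these data known. Named genes were all members, up to 4 called genes per list (otherwise up to 2 with the largest change) and the 5 nearest to MYC. Alternatives were quantile normalization, a common median, other pseudocounts and filters, the mean of probe sets, gene-specific probe sets, fits without the other term or the trend, a robust prior and probe set level fits. The fit that includes probe sets of several genes, and the line counts of the lists under each setting, were added after seeing the data.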

Additional observations from a re-analysis of the deposited data

Results flagged for a closer look

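For 8 kept member probe sets the response to STI571 had opposite signs in the 2 lines; the difference was not tested, since each response rests on 2 arrays. Opposite signs were found for 44.7% of all genes, and for 4 of the 5 member genes fitted. The response of SUP-B15 minus that of BV-173, on the log2(signal + 24.5) scale, was −1.55 for MYC, −0.55 for MXI1, −0.93 for MNT and 1.77 for MXD3. For MAX it was −0.54 for 209331_s_at, −0.62 for 208403_x_at and −0.77 for 210734_x_at. For 221415_s_at, annotated to MYCBP, GJA9 and GJA9-MYCBP, it was −2.78. Of the signals of this dim set, only that of treated BV-173 (149.6) was above its array median. That of treated SUP-B15 (12.7) was below the added 24.5. With a common array median the responses of MYC and MXI1 were negative in both lines, as were those of MYC with quantile normalization; the other 6 probe sets had opposite signs under all 3 scalings.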

How the results depend on the processing

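The 239 genes called for STI571 became 153 with a common median, 137 with gene-specific probe sets alone, 116 with the mean of probe sets, and 0 without the intensity trend (658 at an unadjusted p under 0.05) or without the cell line term (70). The 2273 calls between the lines became 1340 with gene-specific probe sets, 1460 without the treatment term and 629 without the trend. Fewer genes were fitted with gene-specific sets (4865), where MYC, MAX and MXD3 have no value; the causes of the other changes were not tested. For MYC the STI571 change of −0.76 was no longer called with no filter, with the mean of probe sets, without the trend and without the cell line term, and the line difference of −2.43 without the trend (adjusted p = 0.0506). For MAX the line difference was not called with the mean of probe sets (−0.48) and without the trend (−0.90). The other alternatives changed no call of a member gene, and 0 results turned from called in one direction to called in the other. No array could be left out, since that leaves 0 residual degrees of freedom. The cell line pairs the arrays in the limma fit reported, and the fit without that term is the unpaired one. Precision is limited by having 1 array per group.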

Other observations

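The MYC relatives MYCN and MYCL and the glucose-responsive factor MLXIPL were not fitted, because their probe sets stayed below the median of every array. Signals lay between 4.1 and 52.9 over the 3 probe sets of MYCN, between 1.9 and 93.5 over the 2 of MYCL, and between 7.8 and 41.9 for the 1 of MLXIPL. Among factors that act on the MYC gene, the Ikaros relative IKZF3 was also below the filter, at 4.0 to 43.4. Of the genes that MYC represses, the cell cycle inhibitor gene CDKN2B (10.2 to 14.9) and the heme oxygenase gene HMOX1 (16.7 to 47.0) were below it.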
